A study of Mus musculus and Homo sapiens with 352 samples.

Results

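Hub anchors are stretches of the mouse genome that were joined to 6 or more different partners in a CTCF ChIA-PET interaction list. An anchor is 1 end of an interaction, anchors were taken as the same where their coordinates were identical, and the partners of an anchor are all anchors it was joined to. The 2 lists held 16928 anchors, and 316 of them (1.87%) were hubs: 132 by the wild-type list and 250 by the mutant list, 66 of them by both. Partner number chose them, so the numbers of partners, interactions and tags at hubs within the list that chose them are descriptions. Wherever possible, each hub was also read in the list that did not choose it.

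ChIA-PET pulls down chromatin with an antibody, here against CTCF, ligates DNA ends held in the same complex and sequences the joined pairs, each of which is a tag. Both libraries came from CH12, a mouse B cell lymphoma line: 1 from wild-type cells (genotype WT) and 1 from cells with the genotype CTCFmZF9to11, which the labels place at zinc fingers 9 to 11 of CTCF and which is called mutant here. The labels of these libraries give no further allele or agent for this line, and do not say whether the mutant cells are 1 clone. Each genotype had 1 library, so every difference below is between 2 libraries, has no replicate check and carries no p-value. There were 11534 interactions with 74198 tags in wild type and 11820 with 82222 tags in mutant, and both lists kept interactions of 3 or more tags. Intervals are 95% Wilson intervals of shares or exact order-statistic intervals of medians, treat anchors or partners as independent, and cover variation within these libraries only. Partners of 1 hub share that hub, and neighbouring hubs share partners, so the intervals are too narrow to that extent. Coordinates are in mm9, counted from 1.

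CTCF binds DNA through its zinc fingers at a motif that has a direction, and halts cohesin, the ring complex that extrudes chromatin loops. Loops form mostly between CTCF sites whose motifs point towards each other, so a site tends to hold partners on the side its motif faces. A single strong site can be joined in different cells to many sites along that side, which appears as a stripe in contact maps. Zinc fingers 9 to 11 are known to contact a sequence upstream of the core motif that only some CTCF sites carry.

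In the wild-type list the hubs were 0.974% of 13547 anchors, yet 855 interactions (7.41%) and 8102 tags (10.9%) ended at them. The mutant list gave 2.00% of 12476 anchors, with 1632 interactions (13.8%) and 15750 tags (19.2%). Hubs were therefore 1.89 times as many in the mutant list, and 15 of the 19 chromosomes that held any had more of them there, 3 as many and 1 fewer. Mutant tags were also thinned by the ratio of the listed totals, and interactions then under 3 tags were dropped. That left 192 mutant hubs, in a list of 10712 interactions and 72100 tags, smaller than that of wild type. With interactions of 4 or more tags the lists had 54 and 97 hubs. The median hub had 6 partners and the largest 12 in either list. At the limit itself, 195 wild-type anchors had 5 partners and 74 had 6, against 278 and 142 in the mutant list. Anchors just outside and just inside the limit had medians of 32 and 46 summed tags in wild type, and 33 and 47.5 in mutant. Their farthest partners lay at medians of 287 and 314 kb in wild type, and 340 and 383 kb in mutant.

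Hubs were spread unevenly over the genome. Chromosome 15 had 27 among its 765 anchors (3.53%) and chromosome 14 had 25 of 762 (3.28%), while chromosome 6 had 4 of 890 (0.449%). None of the 228 anchors on chromosome X was a hub, which allows a share of up to 1.32%. The median distance from a hub to the nearest other hub was 493 kb (353 to 638), and 63 hubs (19.9%) had another within 100 kb.

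Partners of a hub lay mostly, but not only, to 1 side. All partners were on 1 side at 46 of 132 wild-type hubs (34.8%, 27.3 to 43.3) and at 58 of 250 mutant hubs (23.2%, 18.4 to 28.8). With anchors merged within 5 kb the shares were 18.2% of 121 and 12.7% of 228 hubs. With 8 or more partners they were 19.05% of 21 and 16.7% of 54 hubs. The size of the difference thus depended on these settings. Its direction was the same in each, but no interval was computed at either setting, so neither sets the 2 lists apart. Hubs with 8 or more partners were also too few for that. Left and right were about equally common, at 21 and 25 one-sided hubs in wild type and 29 and 29 in mutant, where left means towards lower coordinates. Among anchors with 3 to 5 partners, which have fewer chances to fall on both sides, the one-sided shares were 68.3% in wild type and 60.8% in mutant. At 42 wild-type and 88 mutant hubs exactly 1 partner lay on the smaller side, and at 44 (33.3%) and 104 (41.6%) there were 2 or more. No wild-type hub had more than 3 partners on its smaller side, and 12 mutant hubs had 4 or 5.

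**Figure D1:**
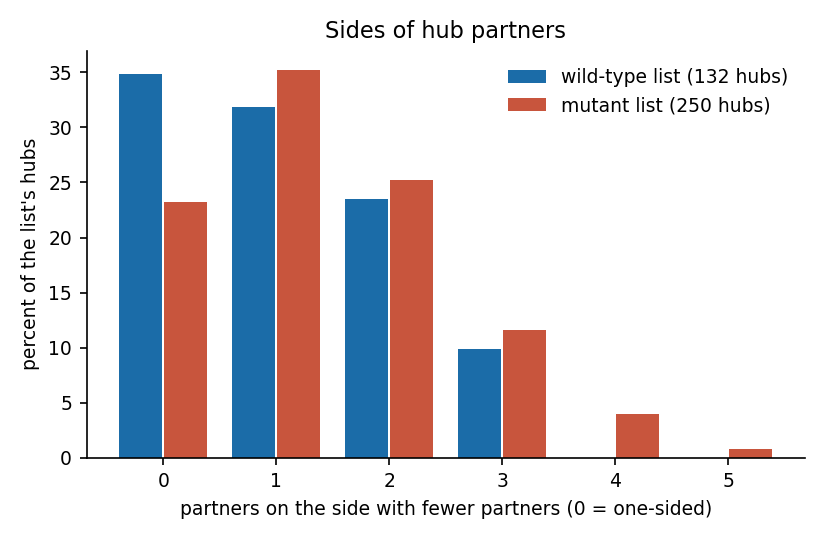
Number of partners on the side with fewer partners (horizontal axis, 0 means one-sided) against the percent of each list's hubs (vertical axis), for 132 wild-type hubs in blue and 250 mutant hubs in red. The wild-type bar is higher at 0, with 34.8% against 23.2%, and bars at 4 and 5 are present for the mutant list alone.

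The few partners on the smaller side were closer than the rest. At two-sided hubs with unequal sides, partners of the smaller side lay at a median of 81.9 kb (58.0 to 120) in wild type, and those of the larger side at 141 kb (129 to 158). In mutant the same medians were 132 kb (113 to 155) and 174 kb (160 to 185). Support was alike on either side in wild type, with medians of 5 and 5 tags, and somewhat lower on the smaller side in mutant, with 4 and 6 tags. The smaller side thus held nearer partners in both libraries, and more distant ones in the mutant library than in the wild-type library.

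The reach of a hub, the distance to its farthest partner between midpoints, was longer in the mutant list. Its median was 315 kb (279 to 350) at wild-type hubs and 400.5 kb (367 to 435) at mutant hubs. Reach ran from 66.5 to 1321 kb in wild type and from 69.2 to 1685 kb in mutant. It passed 500 kb at 32 wild-type hubs (24.2%, 17.7 to 32.2) and 84 mutant hubs (33.6%, 28.0 to 39.7), and 1 Mb at 3 and 18 hubs. A longer mutant reach was not confined to hubs: anchors with 3 to 5 partners had medians of 230 kb in wild type and 290 kb in mutant. One-sided hubs reached medians of 349 kb in wild type and 448 kb in mutant, two-sided hubs 310 and 384 kb.

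Along a side, distances between neighbouring partners varied widely. The median distance between neighbouring partners was 31.5 kb (26.9 to 38.5) at wild-type hubs and 42.0 kb (38.2 to 46.2) at mutant hubs. These medians were below the 40.6 and 55.6 kb of anchors with 3 to 5 partners. More partners on a side leave less room between them, so the choice of hubs alone can lower the spacing. In wild type 163 of 668 spacings (24.4%) were under 10 kb and 145 (21.7%) were 100 kb or more. In mutant 275 of 1270 (21.7%) were under 10 kb and 349 (27.5%) were 100 kb or more. Merging anchors within 5 kb, which turns the closest neighbours into 1 partner, left 121 wild-type and 228 mutant hubs, with spacings of 46.4 and 54.0 kb.

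When partners were ranked by distance, tags did not fall steadily from the nearest outwards. Wild-type hubs had their nearest partner at a median of 32.1 kb and the following ranks at 79.6, 120, 142, 195 and 263 kb. Medians of tags at these ranks were 5, 6, 6.5, 6, 5 and 4. Mutant hubs had medians of 41.9, 79.0, 121, 167, 220 and 316 kb, with 5, 6, 7, 6, 5 and 4 tags. Median support was thus highest at the third partner, some 120 kb away in both lists, although the intervals of ranks 2 to 4 overlapped. In wild type the interval of rank 3 (5 to 8 tags) also met those of ranks 1, 5 and 6. In mutant that of rank 3 (6 to 7 tags) met that of rank 1 (5 to 6 tags).

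**Figure D2:**
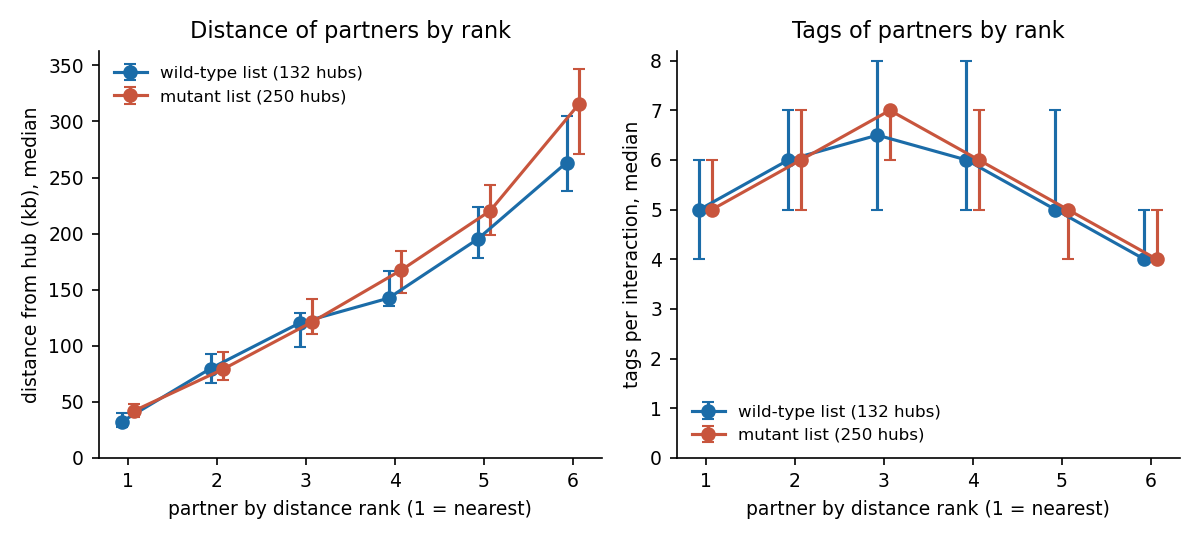
Median distance from the hub in kb (left) and median tags per interaction (right) for the 6 nearest partners, by distance rank, at 132 wild-type hubs (blue) and 250 mutant hubs (red), with exact 95% intervals of the medians. Tags are highest at rank 3, at 6.5 in wild type and 7 in mutant, and the distance intervals of the 2 lists overlap at each of the 6 ranks.

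One partner usually stood out. The partner with most tags held a median of 34.4% of a hub's tags in wild type and 33.8% in mutant, and 50% or more at 21 and 54 hubs. It was the nearest partner at 14 wild-type hubs (10.6%) and 39 mutant hubs (15.6%). It was of distance rank 2, 3 or 4 at 81 (61.4%) and 141 (56.4%), and the farthest at only 5 and 11. The nearest partner held a median of 9.52% of tags in wild type and 10.9% in mutant, and the farthest 7.92% and 8.74%.

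Interactions at hubs had higher mean tags than interactions of like span elsewhere, apart from the longest in wild type. Of wild-type interactions spanning 50 to 100 kb, those at hubs had a mean of 11.3 tags and the others 6.91. Of mutant interactions in that class the means were 12.6 and 7.34. Medians differed less, at 6 and 5 tags in both lists. At 800 kb and more the 8 wild-type hub interactions had a mean of 3.75 tags, against 4.37 elsewhere, and the 45 mutant ones 5.11, against 4.70. Tags and partner number are linked through the 3-tag limit, so the choice of hubs set part of this.

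Each list was then read at the hubs of the other. The 132 wild-type hubs had a median of 5.5 partners (5 to 6) in the mutant list, 66 of them had 6 or more, and 2 were missing from it. The 250 mutant hubs had a median of 4 partners (4 to 5) in the wild-type list, 66 had 6 or more, and none was missing, which allows a share of up to 1.2%. A choice of high values lowers the other reading in both directions, but the reading of wild-type hubs was lowered less. Anchors below the limit showed this too. Those with 5 partners in wild type had a mean of 4.17 in mutant, and those with 5 in mutant a mean of 3.25 in wild type.

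Of single interactions at wild-type hubs, 509 of 855 (59.5%, 56.2 to 62.8) were found in the mutant list with identical anchors, against 45.8% of interactions at no hub. Of interactions at mutant hubs, 797 of 1632 (48.8%, 46.4 to 51.3) were found in the wild-type list, against 45.2%. With 3 tags, the wild-type shares were 35.2% at hubs and 26.4% elsewhere, and the mutant shares 23.1% and 22.3%. With 20 tags or more, 92.0% of wild-type and 94.3% of mutant hub interactions were found, against 89.5% and 91.8% elsewhere. In the classes between, the shares at mutant hubs were the lower ones: 31.8% against 37.0% at 4 to 5 tags, 56.3% against 60.5% at 6 to 9, and 81.4% against 83.5% at 10 to 19. Tags thus went with being found again at hubs as elsewhere, and the higher share at wild-type hubs was seen in every class of tags from 3 to 20 and more.

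By distance rank, fewer far than near partners of mutant hubs were found again, while the intervals at wild-type hubs overlapped. Tags also differed between ranks and were not held equal, and 184 of the mutant hubs were hubs of the mutant list alone. For wild-type hubs the nearest partner was in the mutant list at 50.8% (42.3 to 59.1), the fifth at 65.9% (57.5 to 73.4) and the farthest at 56.1% (47.5 to 64.2). For mutant hubs the nearest was in the wild-type list at 60.8% (54.6 to 66.6), the fifth at 42.8% (36.8 to 49.0) and the farthest at 27.6% (22.4 to 33.4). The far end of a mutant hub was therefore the portion least often present in wild type. The near end of a wild-type hub was no better kept than its far end.

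Partner by partner, the 316 hubs had 1041 partners in both lists, 495 in the wild-type list alone and 926 in the mutant list alone. Partners in both lay at a median of 141 kb (132 to 153), wild-type-only partners at 132 kb (119 to 151) and mutant-only partners at 201 kb (183 to 217). Since 184 of these hubs qualified in mutant alone, the 66 hubs of both lists are the fairer reading. They shared 328 partners, at a median of 141 kb. Their 129 wild-type-only partners lay at 132 kb (110 to 163) and their 163 mutant-only partners at 249 kb (180 to 296).

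At these 66 hubs, 87 of the 163 mutant-only partners (53.4%, 45.7 to 60.9) were beyond every wild-type partner of that side, or on a side empty in wild type. Only 12 of the 129 wild-type-only partners (9.30%, 5.402 to 15.56) were beyond every mutant partner of their side. The mutant list reached farther at anchors with fewer partners too, and like shares for those are not given here. Wild-type-only partners were more often within 10 kb of a mutant partner of the same hub, with 47 of 129 (36.4%), than the reverse, with 38 of 163 (23.3%). Of the mutant-only partners 100 (61.3%) were anchors of some other interaction in wild type. Of the wild-type-only partners 51 (39.5%) were anchors in mutant. Over all anchors, 9095 were in both lists, out of 12476 in mutant and 13547 in wild type, so both shares were lower than over all anchors. Unshared partners lack the interaction with the hub in the other list, which by itself lowers these shares. Unshared partners were weakly supported in both lists, with medians of 4 and 4 tags, whereas shared ones had 7 tags in wild type and 10 in mutant.

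The same 66 hubs had a median of 6.5 partners and 68 summed tags in wild type, and 7 partners and 89.5 tags in mutant. Their reach was 301 kb (264 to 347) and 397 kb (342 to 449). It was longer in mutant at 33, shorter at 3 and the same at 30. These hubs thus kept their reach or gained a farther partner in all but 3 cases. Anchors with 3 to 5 partners also had a longer median reach in mutant, 290 kb against 230 kb in wild type. The shift is therefore not shown to be particular to hubs, and the like split for other anchors is not given here.

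Of all 316 hubs, 212 had more partners in mutant, 81 fewer and 23 as many. Among the 293 that changed this is 72.4% (67.0 to 77.2), beside 59.7% (58.0 to 61.5) of 3008 changed anchors with at most 3 to 5 partners. The count was set in large measure by the 184 hubs chosen on mutant alone, and is a description.

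**Figure D3:**
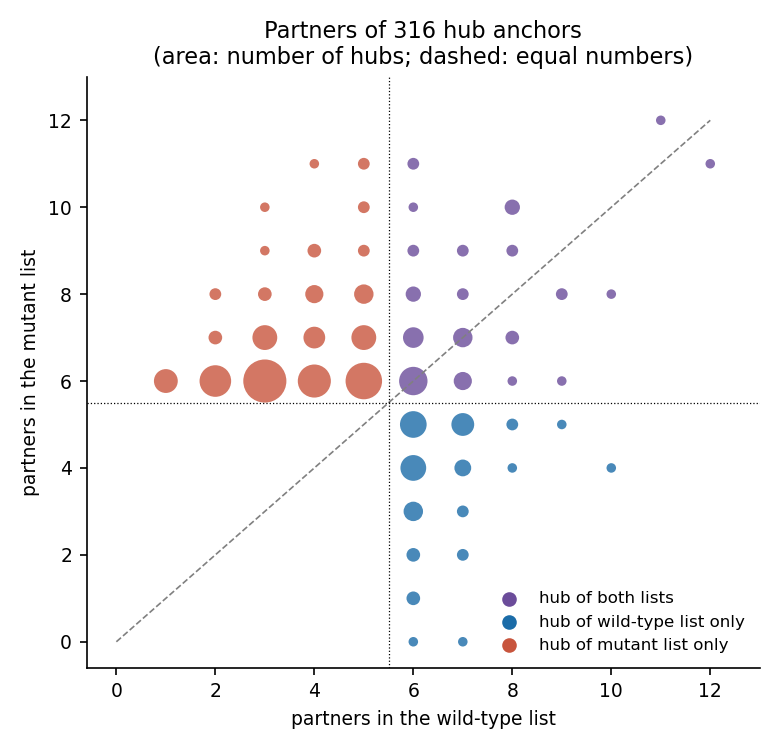
Partners in the wild-type list (horizontal) against partners in the mutant list (vertical) for the 316 hubs, with the area of a point giving the number of hubs, dotted lines at the limit of 6 partners and a dashed line at equal numbers. The 184 hubs of the mutant list alone (red) outnumber the 66 of the wild-type list alone (blue), and 66 were hubs of both (purple).

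Sides differed between the lists at many hubs. The 270 hubs that had at least 3 partners in each list divided into 55 one-sided in both, 133 two-sided in both, 63 one-sided in wild type and two-sided in mutant, and 19 the reverse. At hubs with 3 or more partners that were one-sided in wild type, 92 of 334 mutant-only partners (27.5%, 23.03 to 32.57) fell on the side that was empty. At hubs one-sided in mutant, 23 of 150 wild-type-only partners (15.3%, 10.44 to 21.96) did. Among the 66 hubs of both lists the changes were 8 and 3, too few to set apart. Of the 316 hubs 184 were chosen on mutant partner number alone, which itself leaves more room for two-sided hubs in mutant, so these counts and shares are a description.

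Summed tags of a hub were compared after division by all listed tags of its library. Of 314 hubs present in both lists, 73 (23.2%) had summed tags at least 2-fold higher in mutant, where 17% of all 9095 anchors in both lists did. Another 16 (5.10%) were at least 2-fold higher in wild type, where 14.2% of all anchors were. These counts follow the lists that chose the hubs: 68 of the 73 were hubs of the mutant list alone and 15 of the 16 hubs of the wild-type list alone. Among the 66 hubs of both lists, 5 were higher in mutant and none in wild type, which allows a share of up to 4.55%. Their median log2 ratio of mutant over wild type was 0.22 (0.03 to 0.28), beside 0.07 for all anchors in both lists.

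The anchor at chr18:75758907-75760424 had the most partners in wild type, 12 with 107 tags, all to the left. In mutant it had 11 with 86 tags, 10 to the left and 1 to the right. Its 5 partners in both lists held 11 wild-type and 6 mutant tags at 35.4 kb, 6 and 3 at 46.4 kb, 10 and 13 at 232 kb, 13 and 28 at 524 kb, and 3 and 5 at 609 kb. The shared partners thus ran from the nearest one to far along the left side. Its best supported wild-type partners at 416 kb (21 tags) and 107 kb (17 tags) were not joined to it in mutant. Wild-type-only partners with 3 to 8 tags stood at 304, 553, 558, 579 and 776 kb. Mutant-only partners with 4 to 8 tags stood at 93.8, 257, 637, 788 and 1169 kb, and the right-hand partner, with 3 tags, at 141 kb. The log2 ratio of its summed tags, mutant over wild type, was -0.46 (exact interval -0.89 to -0.04). The number of partners was similar in the 2 libraries, but the partners at mid-distance were largely different ones.

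The anchor at chr14:54847143-54848594 had the most in mutant, 12 with 141 tags, and 11 with 109 tags in wild type. In both lists 2 partners lay to the left, at 168 kb (5 tags in each library) and 164 kb (3 in wild type and 22 in mutant). The nearest right partner, 11.0 kb away, held 41 wild-type tags and 9 mutant tags, and the one at 220 kb held 23 and 54. That partner, chr14:55067477-55068715, was itself a hub with 6 partners in each list. The best supported contact of this hub was thus its nearest partner in wild type and a hub 220 kb away in mutant. Right partners at 101, 179 and 368 kb (6, 3 and 3 tags) were in wild type alone, and those at 295, 325, 340 and 422 kb (3, 5, 9 and 9 tags) in mutant alone. The remaining right partners, at 189, 265, 413 and 472 kb, held 6, 4, 12 and 3 wild-type and 3, 5, 12 and 5 mutant tags.

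The anchor at chr3:121587374-121588607 had 10 partners with 93 tags in wild type and 8 with 104 in mutant. Its strongest partners were shared: 29 and 30 tags at 256 kb, 18 and 27 at 237 kb, 11 and 14 at 107 kb to the left, and 5 and 15 at 79.3 kb. The shared partners at 349 kb to the left (4 and 3 tags) and 754 kb to the right (6 and 9 tags) set its outer limits in wild type. In wild type alone it had partners at 220, 285, 385 and 427 kb with 7, 7, 3 and 3 tags, and in mutant alone at 306 kb and, to the left, 713 kb with 3 tags each. Apart from the weak contacts, this hub was much the same in both libraries.

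The anchor at chr1:182198078-182199607 had 6 partners with 105 tags in wild type, all to the right within 163 kb. In mutant it had 11 with 182 tags, 9 to the right and 2 to the left. Both lists held its partners at 119 kb (9 and 21 tags), 138 kb (59 and 50), 149 kb (3 and 12), 154 kb (5 and 35) and 160 kb (25 and 35), and a partner at 163 kb with 4 tags was in wild type alone. These lie within 50 kb of each other, so the right-hand contacts of this hub formed a block. New in mutant were partners beyond that block at 166, 215, 282 and 495 kb (3, 4, 3 and 11 tags), and on the left at 53.5 and 93.5 kb (3 and 5 tags).

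The anchor at chr3:144382835-144384208 had 5 partners with 78 tags in wild type, all to the left, and kept every one of them in mutant, where it had 11 with 198 tags. The nearest, at 28.4 kb, had 44 tags in wild type and 22 in mutant. The farthest of the shared ones, at 267 kb, had 13 tags in wild type and 98 in mutant. Those at 103, 114 and 253 kb had 9, 9 and 3 tags in wild type and 17, 10 and 5 in mutant. New partners were at 189 and 321 kb on the left (22 and 6 tags) and at 32.8, 105, 284 and 411 kb on the right (4, 3, 3 and 8 tags). Here too the weight lay farther out in the mutant library, and the empty side gained weak partners.

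**Figure D4:**
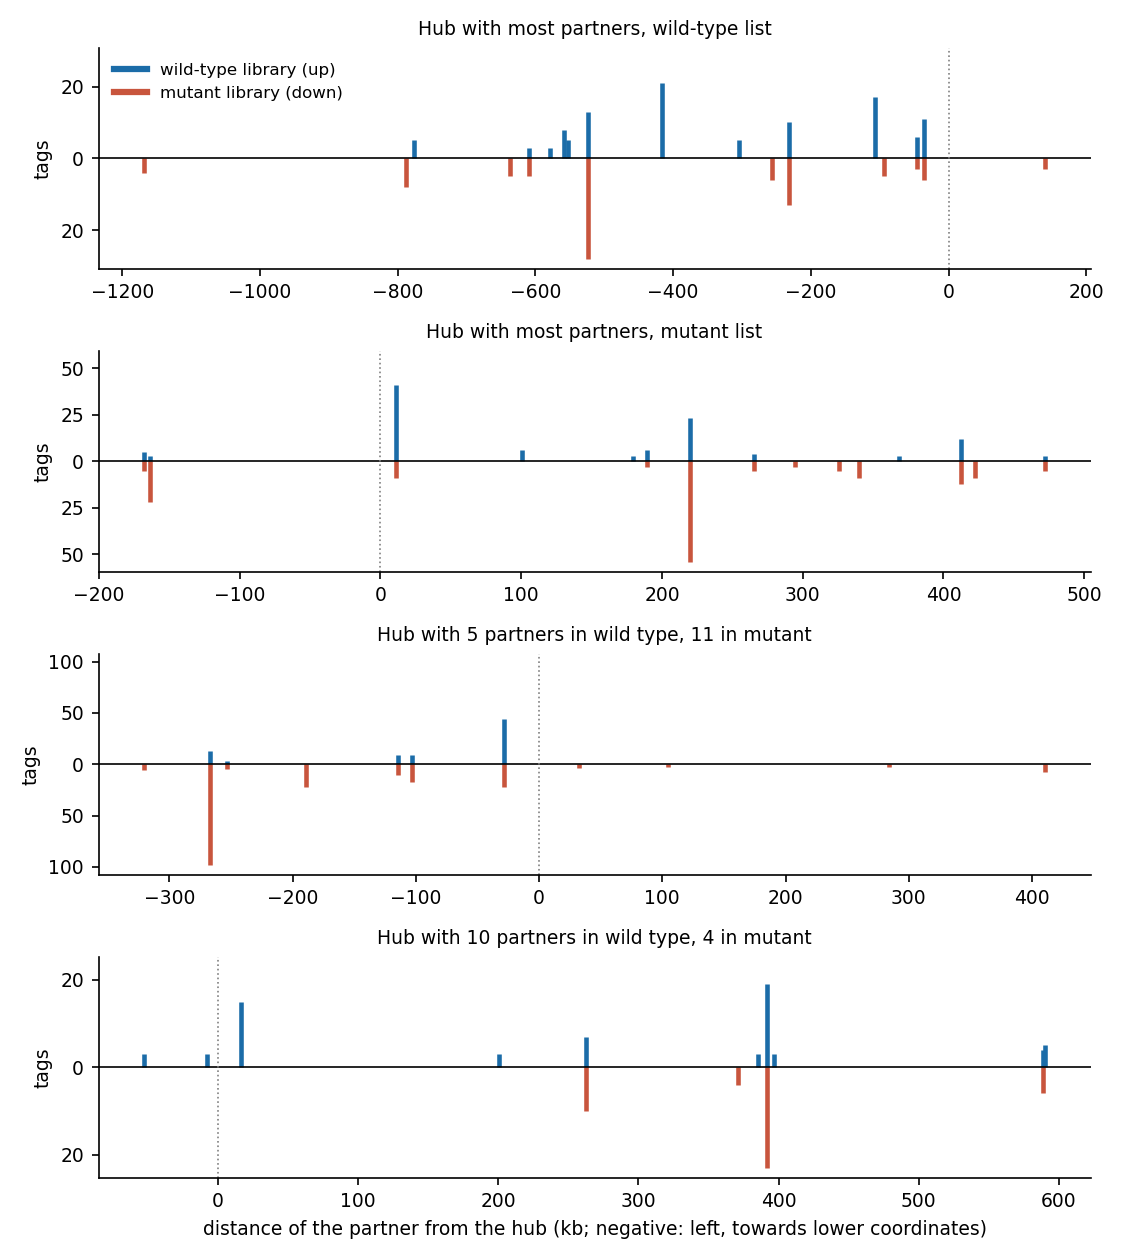
Tags (vertical, wild-type library upwards in blue, mutant library downwards in red) against distance of each partner from the hub in kb (horizontal, negative to the left) for 4 hubs: the ones with most partners in each list, 1 that went from 5 to 11 partners and 1 that went from 10 to 4. In the third panel the tallest blue line is the nearest partner, with 44 tags, and the tallest red line is at 267 kb, with 98 tags.

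The largest gain, of 7 partners, was seen at 2 hubs. At chr7:25890056-25891749 there were 4 partners with 48 tags in wild type and 11 with 138 in mutant. Its strong right partners were shared, at 27.4 kb (22 and 50 tags), 82.0 kb (18 and 50) and 228 kb (3 and 6), and 1 at 75.8 kb with 5 tags was in wild type alone. The 8 mutant-only partners held 3 or 4 tags except for 1 of 10 tags at 134 kb, and 2 of them were on the left, at 23.4 and 75.5 kb. Most of this gain in partners was therefore at or next to the 3-tag limit. The log2 ratio of its summed tags, mutant over wild type, was 1.38 (exact interval 0.89 to 1.88).

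The other gain of 7 was at chr8:124126352-124127540, from 3 partners with 20 tags, within 82.4 kb, to 10 with 70. It kept partners at 55.7 kb on the left (4 and 3 tags) and 82.4 kb on the right (12 and 20), and lost 1 at 19.1 kb. Its 8 new partners held 3 to 9 tags. They included 7 between 205 and 332 kb on the right and 1 at 489 kb on the left, chr8:123636763-123638466, itself a hub with 8 partners in wild type and 5 in mutant. None of the new partners was as near as the 2 that were kept.

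The largest loss was at chr10:127111246-127112526, which had 7 wild-type partners with 64 tags and was missing from the mutant list. On the left its partners were at 12.0, 32.6 and 105 kb with 9, 18 and 5 tags. On the right they were at 59.8, 64.0, 262 and 334 kb with 14, 9, 6 and 3 tags. All but 1 of these partners, the one at 59.8 kb, were anchors of other mutant interactions. Its CTCF peak in wild-type CH12 cells ranked at percentile 99.1 of scores. Another anchor, chr10:127114633-127115843, lay only 3.35 kb to its right and is named here after its values were seen. It had 3 partners with 27 tags in wild type and 6 partners with 52 tags in mutant, which made it a mutant hub. In the mutant list it was joined to 5 of the 7 lost partners, those at 12.0, 32.6, 64.0, 105 and 334 kb, with 4, 28, 3, 5 and 7 tags. In wild type it was joined to 3 of the 7. Most partners lost at the one anchor were thus listed in mutant at its close neighbour.

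At chr2:26501921-26503301, 10 partners with 65 tags became 4 with 43. Shared partners at 263, 392 and 589 kb on the right held 7, 19 and 4 wild-type tags and 10, 23 and 6 mutant tags. The 7 lost partners lay at 8.06 and 53.0 kb on the left with 3 tags each, and on the right at 16.6 kb with 15 tags and at 201, 385, 397 and 590 kb with 3, 3, 3 and 5 tags. Both near and far ones were lost, but most of the far ones lay close to a kept partner. Those at 385 and 397 kb were on either side of the kept one at 392 kb, and that at 590 kb was beside the kept one at 589 kb. The single new partner, at 371 kb, had 4 tags. The hub at chr2:180206883-180208415 lost all 6 of its partners, which lay at 40.4 kb on the left and at 87.5, 93.7, 106, 206 and 273 kb on the right and held 4, 3, 4, 8, 4 and 3 tags. It was the other hub missing from the mutant list.

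The longest reach in wild type belonged to chr7:74774452-74776533, with 8 partners to 1321 kb in wild type and 9 to 1529 kb in mutant, all to the left in both libraries. Its tags gathered between 387 and 431 kb, at 4 partners shared by the lists with 7, 18, 10 and 3 wild-type tags and 14, 12, 13 and 4 mutant tags. The partners at 1321, 1522 and 1529 kb had 3 or 4 tags each, and none of them was shared. The anchor at chr16:30251426-30252964 reached 1103 kb to the right through a partner in both lists (3 and 6 tags), with 9 wild-type and 8 mutant partners, all on that side. It had 94 wild-type and 60 mutant tags (log2 ratio -0.80, -1.29 to -0.31), and its nearest partner 17 and 3. At chr16:11424004-11424618, with the longest mutant reach, partners at 1165, 1335 and 1685 kb were in mutant alone with 5, 5 and 4 tags. Partners beyond 1 Mb thus held 3 to 6 tags at each of these hubs, and 1 of them was in both lists.

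The hubs with most tags were each other's partner, 39.3 kb apart at chr14:103410668-103412482 and chr14:103450300-103451403. The interaction between them held 259 wild-type and 256 mutant tags, out of 287 and 282 at the first and 287 and 301 at the second. Their other partners held at most 13 tags in either library. High summed tags here came from 1 interaction and not from many partners.

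Among hubs of both lists the highest ratios of mutant over wild-type tags were at chr14:56440949-56442335, with 88 and 240 tags (log2 ratio 1.30, 0.94 to 1.67), and chr18:36487685-36489276, with 39 and 100 (1.21, 0.66 to 1.78). The added mutant tags were mostly on partners present in both lists. In the first, the partner at 96.1 kb had 24 wild-type and 123 mutant tags and that at 41.2 kb 40 and 85. In the second, the partner at 194 kb had 3 and 20 and that at 197 kb 13 and 34. Besides the chromosome 16 hub above, the lowest ratio was at chr2:166897176-166898269, with 133 wild-type and 91 mutant tags (log2 ratio -0.70, -1.10 to -0.30). There a partner at 147 kb with 72 wild-type tags was absent in mutant, while partners at 207 and 118 kb had 18 mutant tags each and 0 and 3 wild-type tags. Differences of summed tags at these hubs rested on 1 or a few partners.

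Hubs were joined to each other through 31 wild-type and 80 mutant interactions, at medians of 141 and 230 kb. A hub was said to face the side with more partners. Joined hubs faced each other in 13 wild-type and 33 mutant interactions, faced the same way in 14 and 33, and faced away from each other in 2 and 3. In the rest, 2 and 11, a hub had equal sides. An interaction between 2 hubs counts towards the side of each, which favours hubs that face each other.

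Hubs joined to hubs formed 22 groups in wild type, the largest of 4, and 43 groups in mutant, the largest of 7. The group of 7 spanned 1175 kb of chromosome 13 and none of its members was a hub in wild type, where they had 2 to 5 partners. Of its 21 possible combinations, 6 were joined in wild type with 44 tags and 16 in mutant with 147 tags. Most hub partners in mutant were at chr13:52806902-52808121 and chr13:52753342-52754624, each joined to all 6 others, and then at chr13:52347857-52350164 and chr13:53190303-53192775, each joined to 5. The first had 22 tags with 3 partners in wild type and 69 with 6 in mutant, and its interaction with chr13:53077769-53079075, 271 kb away, had 15 and 40 tags. The second had 11 tags with 2 partners, then 52 with 6. Both gained contacts to each side of an already joined core. The third had 21 tags with 4 partners, then 43 with 9, and reached 1173 kb in mutant, to the far member of the group (5 tags). The CH12 peaks of these first 3, at percentiles 76.7, 90.3 and 82.4, were lower than that of the typical hub.

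Partners of a hub were mostly not joined to one another. In wild type 374 of 2606 combinations of 2 partners of a hub (14.4%, 13.1 to 15.8) were joined, and in mutant 790 of 5208 (15.2%, 14.2 to 16.2). Partners on the same side were joined at 14.5% in wild type and 16.4% in mutant, and partners on opposite sides, whose joining would span the hub, at 13.9% and 12.8%. For 281 of 886 partners in wild type (31.7%) and 483 of 1712 in mutant (28.2%) the hub was the only partner. Over all interaction ends the shares were similar. Anchors with 1 partner numbered 7758 in wild type and 6346 in mutant, with 11534 and 11820 interactions of 2 ends each.

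CTCF binding was read from a list of 39438 peaks of wild-type CH12 cells, as ranks of the authors' peak score, and from a list of 59978 peaks of resting and activated B cells. The authors mapped interactions to CTCF peak calls, so presence of a peak is partly built in. None of the 316 hubs lacked a peak in either list, which allows a share of up to 0.949%, while 3.61% of anchors with 1 partner lacked a CH12 peak. The median percentile of the CH12 peak at an anchor, by the most partners it had in either list, was 63.2 with 1 partner, 75.7 with 2, 83.5 with 3 to 5 and 97.4 (96.8 to 98.1) at hubs. Among hubs 218 (69.0%, 63.7 to 73.8) had a peak in the top 10% of scores, against 11.4% of anchors with 1 partner. A score of 3100 recurred in 176 peaks, and 57 hubs reached it or more, so ranks at the very top are tied.

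The 2 measures of the B cell list gave different pictures. Ranked by −log10 q, the medians were 75.1, 82.4, 85.9 and 92.0 (90.2 to 92.8) over the same classes. Ranked by fold over background they were 70.7, 72.6, 71.5 and 72.3 (69.9 to 75.2), with no rise. Hub anchors were also wider, with a median of 1314 bp against 1025 bp for anchors with 1 partner, and 37 (11.7%) held 2 or more CH12 peaks, against 2.43%. The part of peak width in these ranks was not tested.

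Hubs of both lists had the highest CH12 percentile, 99.1 (98.8 to 99.3). Those of the wild-type list alone had 97.8 (96.8 to 98.6) and those of the mutant list alone 95.4 (91.4 to 97.2). CH12 peaks came from wild-type cells, and binding in the mutant cells was not analysed here.

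Around a hub, CTCF peaks were somewhat denser. Within 100 kb on both sides together there was a median of 9 CH12 peaks (8 to 9), against 6 at anchors with 1 partner, 7 with 2 and 7 with 3 to 5. In the B cell list the medians were 12, 10, 10 and 11. One-sided hubs did not lack peaks on their empty side. In wild type 19 of 46 had more peaks within 100 kb on the partner side, 22 on the empty side and 5 as many. In mutant 26 of 58 had more on the partner side, 27 on the empty side and 5 as many. The median was 4 on each side in each list. Motif orientation was not analysed here.

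Many CTCF peaks between a hub and its farthest partner were not partners. Out to the farthest partner of each side, wild-type hubs passed 2576 CH12 peaks, and 924 (35.9%, 34.0 to 37.7) were at partners. Mutant hubs passed 6362, and 1797 (28.2%, 27.2 to 29.4) were at partners. The share was higher at higher peak scores in both lists, from 7.98% at score percentiles 0 to 20 to 60.3% at 80 to 100 in wild type, and from 6.37% to 53.1% in mutant. Peaks at partners had median percentiles of 79.7 and 80.9, those passed over 44.7 and 46.9. Still, 161 peaks passed over in wild type and 432 in mutant were in the top 10% of scores. Among the peaks passed over this is close to the 10% that the limit takes of all CH12 peaks. Strong sites on the way were therefore not always listed as partners.

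**Figure D5:**
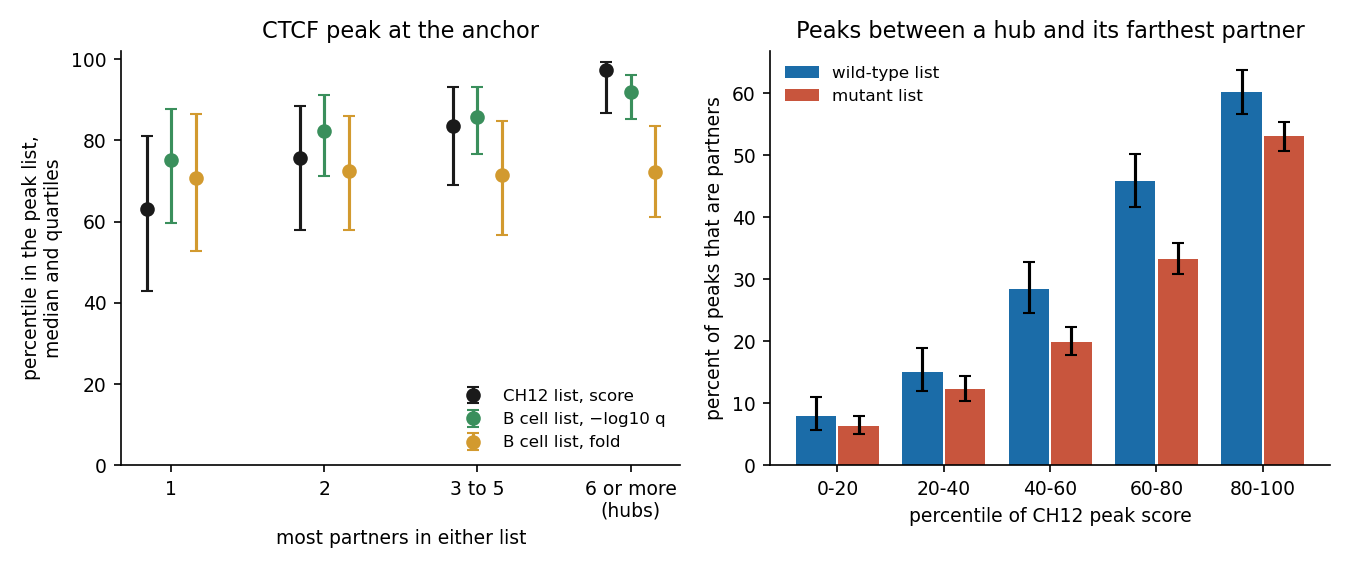
Left, percentile of the CTCF peak at an anchor within its peak list (median with quartiles) by the most partners of the anchor in either list, for the CH12 score (black), the B cell −log10 q (green) and the B cell fold over background (yellow). Right, percent of CH12 peaks between a hub and its farthest partner that were at partners, by class of peak score, with Wilson 95% intervals, which rises from 7.98% to 60.3% in wild type and from 6.37% to 53.1% in mutant.

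The peak at a hub was higher in score than every peak at its partners at 68 of 132 wild-type hubs (51.5%, 43.1 to 59.9) and 100 of 250 mutant hubs (40.0%, 34.1 to 46.2). Median percentiles of partner peaks were 78.5 at the nearest and 81.6 at the sixth partner in wild type, with overlapping intervals. In mutant they were 76.9 (73.1 to 80.5) at the nearest, 83.9 at the sixth and 88.3 (83.3 to 91.7) at the seventh partner, which 108 hubs had. By change, partners in both lists had a median percentile of 83.5 (81.7 to 85.0), mutant-only partners 80.6 (78.8 to 82.4) and wild-type-only partners 74.7 (71.2 to 77.8). Wild-type-only partners thus had the lowest median of wild-type CTCF peaks. These medians pool all 316 hubs, of which 184 were hubs of the mutant list alone. Mutant-only partners also lay farther out than wild-type-only ones, and distance was not held equal.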

How the data were processed

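Members and lists were chosen with earlier results of these data known. Counts of tags for each interaction were deposited by the authors. The file headers state that these had been assigned to CTCF peaks that carry a core motif, with a minimum of 3 tags and a maximum loop of 2 Mb. The deposited CH12 list gives each peak a score. The deposited B cell list gives a fold over background, and as a further column a q-value as −log10. The submitters' processing notes name mm9 as the build, and BWA, Bowtie 1.1.1, bedtools 2.25, CASAVA 1.8.2 and SAMtools 1.2 as tools without roles. Not given in the sources used here are the interaction caller, the cells whose peaks set the anchors, any pooling before peak calling, and library depth, which listed tags do not measure.

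Partners, sides (by midpoint), reach and spacing were computed from each list. A peak was at an anchor with 1 bp of overlap, and the highest peak was taken. Log2 ratios used summed tags over all listed tags, with exact binomial intervals. The 2-fold limit was applied to anchors in both lists. Intervals and limits for counts of 0 (3 of the total) cover counting error only. No mm9 annotation or sequence was used, so genes and motifs are not given. A fixed rule named the hubs described singly: in each list the 3 with most partners, the 2 with the farthest partner and the 2 with most tags. It added the 3 largest gains and 3 largest losses, the 2 largest tag folds in each direction among hubs of both lists, and the 3 with most hub partners. Alternatives covered tag minimum, partner minimum, merging, span, matching, scaling and peak measure. The steps were tested on simulated lists, where 127 of 127 simulated hubs were recovered. Python 3.11.15 was used with matplotlib 3.10.9, scipy 1.17.1, numpy 2.4.6 and pandas 2.3.3.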

Additional observations from a re-analysis of the deposited data

How the results depend on the processing

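No paired analysis was possible because the interaction lists have no replicates, with 1 library for each genotype. In 27 of 59 alternatives the value lay inside the 95% interval of the one reported, or within 1.5 times of a count. A change of direction could be seen only for the log2 ratio of hub numbers and the difference of one-sided shares, and neither reversed. Hub numbers in wild type and mutant were 54 and 97 at 4 tags or more, 327 and 528 at 5 partners, 21 and 54 at 8 partners, and 5 and 20 at 6 tags or more, the last chosen after seeing the data. The log2 ratio of the numbers, reported as 0.92, was 1.36 at 8 partners and 2.00 at 6 tags or more. It was 0.54 when mutant tags were thinned by the ratio of the listed totals, which left 192 mutant hubs. The thinned list, with 72100 tags, was smaller than the wild-type list.

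One-sided shares were 19.05% and 16.7% at 8 partners. Merging anchors within 5 kb made them 18.2% and 12.7%. The difference of -11.7 percentage points became -2.38, -5.71 (4 tags or more) and -5.46 (merged). Reach was 414 and 476 kb at 8 partners, and 272 kb for wild type at 4 tags or more. Spacing with merged anchors was 46.4 and 54.0 kb. Shares found in the other list were 73.9% and 61.0% with a 10 kb tolerance, and 66.9% and 57.7% at 4 tags or more. The percentile of the peak at hubs was 72.3 by B cell fold and 92.0 by B cell −log10 q, the latter added after seeing the data, as was counting the absent hubs as changed, which made 16 hubs 18. Peaks near a hub were 5 within 50 kb, 17 within 200 kb, 5 when at or above the median score, and 12 in the B cell list. Shares of peaks at partners were 50.6% and 41.3% among peaks at or above the median score.

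Hubs rest on interactions near the 3-tag limit, so hub number depends on that limit. Depth of the libraries and spread between cultures are unknown.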
